A study of Mus musculus with 18 samples.

Results

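The ID genes and their bone morphogenetic protein (BMP) pathway were followed as 10 genes of mouse tubular epithelial cells treated with transforming growth factor β (TGFβ). They were Id1, Id2, Id3 and Id4, the ligand gene Bmp4, the receptor genes Bmpr1a and Bmpr2, the transducer gene Smad1, the inhibitor gene Smad6 and the target gene Atoh8. The members were named by symbol and matched to the gene identifiers of the count table, which gave 10 of 55487 gene rows. All 10 were among the 13469 genes that held enough reads to be tested. No measured threshold chose them, but they were chosen with earlier results of these data known. TGFβ lowered 7 of the 10 on each of 3 backgrounds, raised Bmpr2, and gave no call for Bmpr1a or Smad1.

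ID proteins are helix-loop-helix proteins that lack a DNA-binding region and hold E proteins away from their target genes, and they are known for keeping cells undifferentiated. BMP ligands bind a complex of type I and type II receptors, which phosphorylates SMAD1, SMAD5 and SMAD9. With SMAD4 these enter the nucleus and switch on the ID genes, SMAD6 and other direct targets. TGFβ itself acts mainly through SMAD2 and SMAD3, and in the kidney BMP signalling is known for opposing the fibrotic action of TGFβ on tubular cells.

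The cells were im-TEC, a mouse line of conditionally immortalized tubular epithelial cells that carry an interferon-γ-inducible, temperature-sensitive large T antigen. Before seeding, all groups alike were kept without interferon-γ at the temperature that silences the antigen, per the labels. The 6 groups of 3 libraries each were control, TGFβ at 10 ng/mL, nicotinamide (NAM) at 1 mM, TGFβ with NAM (TGFβ+NAM), S-adenosyl methionine (SAM) at 0.5 mM, and TGFβ with SAM (TGFβ+SAM), all for 48 h. NAM and SAM are the substrates of nicotinamide N-methyltransferase, the enzyme the series is about. RNA was read near the 3′ end of polyadenylated transcripts (QuantSeq). All libraries come from 1 cell line and nothing says that replicates came from separate cultures, so p-values measure the spread between these samples, which may be technical.

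Libraries held 4171170 to 7717626 reads in genes and 15236 to 16379 genes with a read. Library numbers run on without a gap through the 12 libraries that had no SAM, skip 6 numbers and continue through the 6 that had it, so a separate preparation and SAM cannot be told apart where a SAM group is set against a group without it. The treatment tags of SAM replicates 2 and 3 conflict with their titles. Each member's result on the SAM group is therefore given also without both libraries where that changes the call. For single genes outside the members the fit without both is not given, so their calls on SAM need not hold there. Replicate 3 of NAM and replicate 1 of TGFβ+NAM stood apart on the third principal component, which held 5.20% of the variance. Of the tubular markers Pax2, Pax8, Cdh16, Aqp1, Lrp2 and Krt8 were detected. In contrast, Epcam had no read, Cdh1 at most 7 reads in a group and Krt18 at most 27 reads in a group. The labelled epithelial type was thus only partly borne out by its markers. The summed level of the 12 tubular markers was 1941 to 2029 CPM (counts per 1000000 reads on the scaled library size) in control and 817 to 902 CPM with TGFβ. The summed level of 6 fibroblast markers was 3.29 to 7.09 CPM in control and 109 to 115 CPM with TGFβ, almost all of it Col1a1, with Lum at 0 reads in every library. The 5 podocyte markers summed to 255 to 346 CPM over all libraries, from Podxl and Synpo, with Nphs1 at 0, and the 6 endothelial markers to at most 1.55 CPM in any library. Whether a change in the mix of cell states takes part in the results below was not tested. In bulk RNA, fewer cells that express a gene and less RNA per cell cannot be told apart.

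The ID genes and SMAD6 are textbook direct targets of BMP-activated SMADs, so the letters ahead of the members that fell are shown. Upstream windows of 250 bases were taken from RefSeq (GRCm38.p6), which held 9 of the 10 members and no entry for Id1. The 4 windows below belong to members that fell with TGFβ and hold no exon of any annotated transcript. Each runs 5′ to 3′ on the gene's own strand and ends at the base before the RefSeq start of the transcript. Capitals mark GGCGCC and GGAGCC, GC-rich letters described for BMP-activated SMADs, found on either strand, so that GGCTCC is GGAGCC read from the opposite strand.
Id4 (chr13:48260866-48261115, plus strand): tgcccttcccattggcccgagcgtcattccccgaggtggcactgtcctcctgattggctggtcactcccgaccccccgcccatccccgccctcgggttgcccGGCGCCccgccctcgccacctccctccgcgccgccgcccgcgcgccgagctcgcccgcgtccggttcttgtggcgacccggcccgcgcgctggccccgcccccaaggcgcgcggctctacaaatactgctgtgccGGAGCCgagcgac
Atoh8 (chr6:72235578-72235827, minus strand): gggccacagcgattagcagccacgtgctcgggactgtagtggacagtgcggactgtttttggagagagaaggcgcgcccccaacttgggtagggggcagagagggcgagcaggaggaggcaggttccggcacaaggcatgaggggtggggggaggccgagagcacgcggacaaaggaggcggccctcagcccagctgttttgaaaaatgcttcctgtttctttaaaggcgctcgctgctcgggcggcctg
Smad6 (chr9:64022060-64022309, minus strand): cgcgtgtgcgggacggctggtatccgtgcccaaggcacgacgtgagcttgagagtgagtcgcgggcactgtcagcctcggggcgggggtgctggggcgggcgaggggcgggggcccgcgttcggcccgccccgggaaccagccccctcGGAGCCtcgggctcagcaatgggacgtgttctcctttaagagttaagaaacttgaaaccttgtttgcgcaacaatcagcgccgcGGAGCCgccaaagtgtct
Bmp4 (chr14:46390670-46390919, minus strand): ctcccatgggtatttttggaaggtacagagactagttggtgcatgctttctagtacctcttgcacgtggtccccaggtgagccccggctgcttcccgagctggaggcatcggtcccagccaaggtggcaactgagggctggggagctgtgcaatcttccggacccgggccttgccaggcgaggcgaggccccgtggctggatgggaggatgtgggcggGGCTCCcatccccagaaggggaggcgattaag

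The Id4 window holds GGCGCC 148 to 143 bases and GGAGCC 13 to 8 bases before the start. Smad6 holds GGAGCC at 102 to 97 and at 18 to 13 bases before it, and Bmp4 holds it once, on the opposite strand, at 32 to 27 bases. The Atoh8 window has neither run of letters. Over the 9 member windows GGCGCC was present in 4 (Id2, Id4, Bmpr1a and Bmpr2), against 9.59% of 32851 windows of the same length, and GGAGCC in 5 (Id2, Id3, Id4, Bmp4 and Smad6), against 26.0%. The shorter run CAGAC, which SMAD3 and SMAD4 can bind and which overlapped neither of the others in the member windows, was present in 1 member window, that of Id3, against 42.2%. The longer BMP response element, in which a GC-rich run and a SMAD4 run stand a fixed distance apart and which can overlap GGCGCC, was in 0 of the 9 and in 0.192% of all windows. Member windows held 62.8% to 78.8% G and C, whereas the median of all windows was 52.4%, and the shares were not matched for this. A match is a description of letters and not a binding site, and these windows do not cover distant enhancers.

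All 4 ID genes fell with TGFβ on each background. With TGFβ alone Id1, Id2, Id3 and Id4 reached 44.4%, 21.4%, 51.0% and 7.55% of their control means, the smallest share being that of Id4 and the largest that of Id3. In none of the 3 backgrounds did a TGFβ-treated library reach the level of an untreated one for any ID gene. CPM values compare one gene between groups, not genes with each other.

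Id1 (chromosome 2, 152736251 to 152737410, GRCm38) encodes the ID family's best known BMP target. It was at 231, 219 and 209.8 CPM in the 3 control libraries and at 99.6, 102 and 91.4 CPM with TGFβ. On NAM it was at 228, 222 and 232 CPM without and 95.4, 98.6 and 115 CPM with TGFβ. On SAM it was at 277, 277 and 296 CPM without and 118, 131 and 133 CPM with TGFβ. All 9 untreated libraries lie above all 9 TGFβ-treated ones, and the SAM groups are the upper ones on either side. The fitted log2 change with TGFβ was -1.17 ± 0.09 (SE) on control medium, -1.14 ± 0.09 on NAM and -1.15 ± 0.09 on SAM, with edgeR adjusted p of 2.76e-13, 3.26e-13 and 1.31e-13. The change of Id1 was thus nearly the same size on the 3 backgrounds.

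Id2 (chromosome 12, 25093799 to 25097140), whose protein binds E proteins and has roles in keeping progenitor cells undifferentiated, was at 469, 451 and 483 CPM in control and at 108, 98.4 and 94.6 CPM with TGFβ. On NAM it went from 508, 501 and 556 CPM to 100.0, 83.5 and 78.2 CPM. On SAM it went from 749.9, 725 and 853 CPM to 105, 125 and 102 CPM. The untreated groups were spread widely, from control up to SAM, whereas of the TGFβ-treated groups TGFβ overlapped both TGFβ+SAM and TGFβ+NAM, and all TGFβ+SAM libraries lie above all TGFβ+NAM libraries. TGFβ changed Id2 by -2.22 ± 0.10 on the log2 scale on control medium, -2.58 ± 0.10 on NAM and -2.81 ± 0.10 on SAM (edgeR adjusted p 4.41e-21, 2.72e-23 and 7.92e-25).

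Id3 (chromosome 4, 136143497 to 136145755), a close relative of Id1 that is often induced with it, was at 428, 427 and 446 CPM in control and 242, 219 and 202 CPM with TGFβ. It was at 443, 413 and 494 CPM on NAM and 241, 188 and 203 CPM on TGFβ+NAM. It was at 535, 497 and 529 CPM on SAM and 243, 281 and 314 CPM on TGFβ+SAM. Treated and untreated libraries did not overlap on any background. The fall was 0.97 ± 0.10 on the log2 scale on control medium, 1.09 ± 0.10 on NAM and 0.90 ± 0.10 on SAM (edgeR adjusted p 1.58e-10, 5.01e-12 and 4.78e-10).

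Id4 (chromosome 13, 48261228 to 48266026) is a member of the family known best from brain and germ cells. It was at 42.8, 34.0 and 40.2 CPM in control and 4.04, 2.83 and 1.97 CPM with TGFβ, from 24, 18 and 8 reads. On NAM it was at 48.0, 40.3 and 46.2 CPM without and 3.90, 5.77 and 2.33 CPM with TGFβ. On SAM it was at 79.3, 73.5 and 97.8 CPM without and 8.68, 5.38 and 5.43 CPM with TGFβ. All treated libraries are below all untreated ones, and the SAM libraries are the highest. For Id4 the fitted change was -3.68 ± 0.25 (log2) on control medium, -3.46 ± 0.23 on NAM and -3.69 ± 0.21 on SAM (edgeR adjusted p 2.34e-15, 1.53e-15 and 1.18e-17), the largest of the 10 members in each of these comparisons, with the treated side resting on 50, 71 and 117 reads in all.

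**Figure D1:**
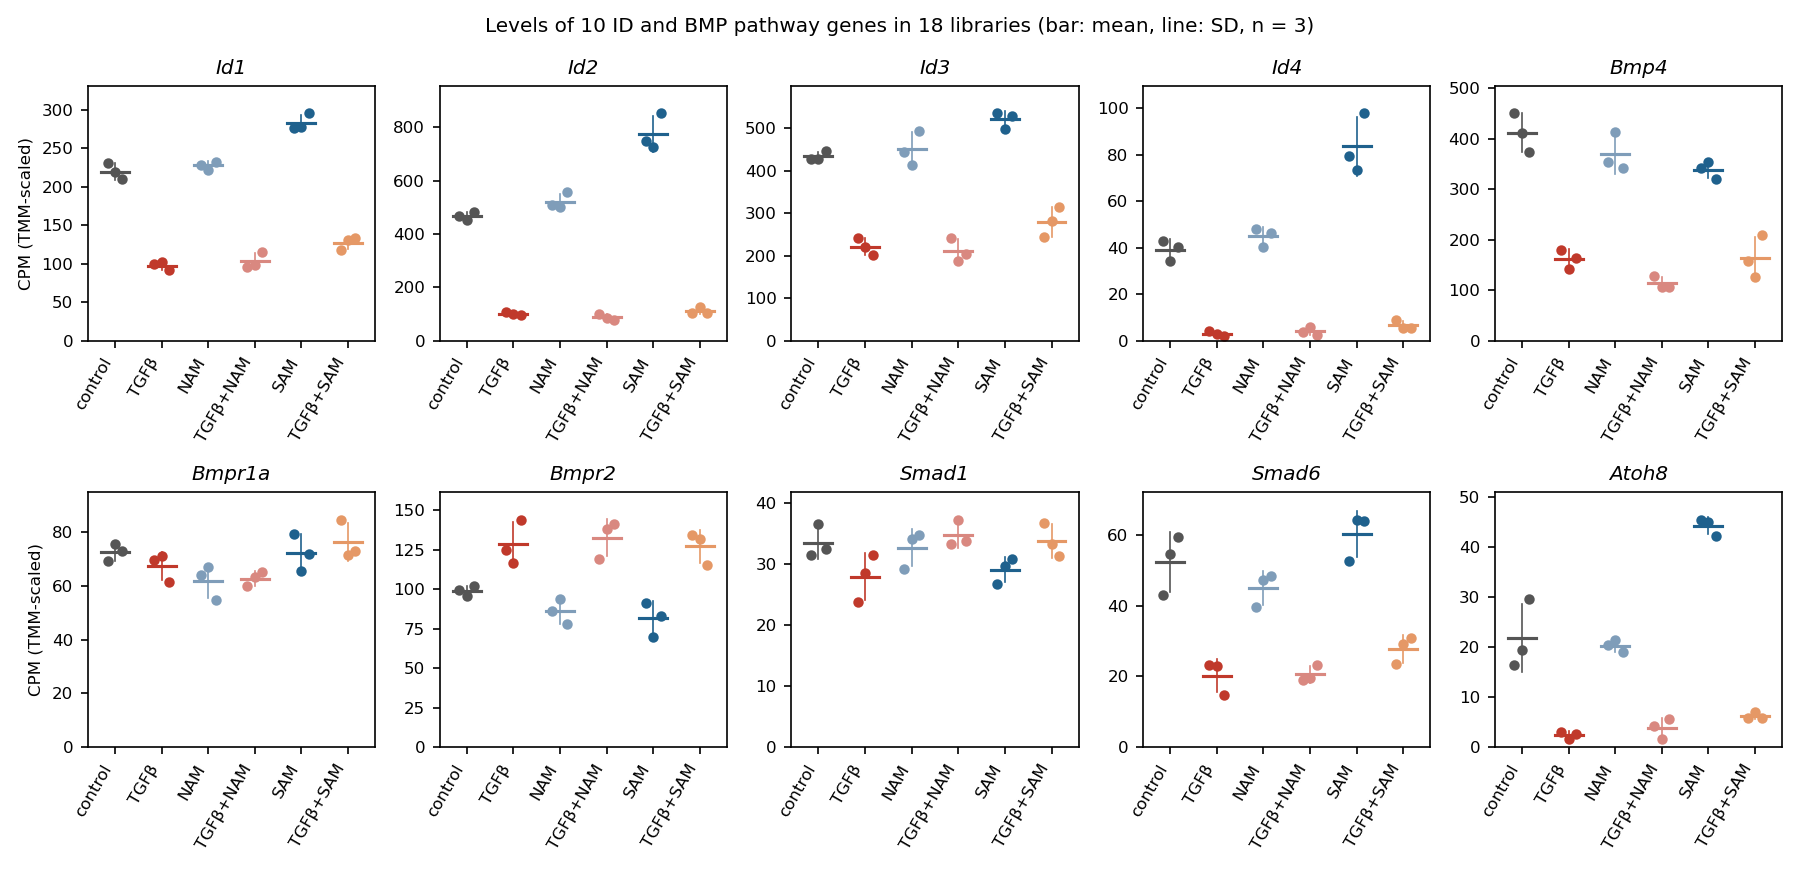
Levels of the 10 members in CPM (linear axes that start at 0), by group, with a point for each of the 3 libraries, a bar for the group mean and a line for the SD. Id1, Id2, Id3, Id4, Bmp4, Smad6 and Atoh8 are lower in each TGFβ-treated group than in its untreated partner, Bmpr2 is higher, and the SAM group holds the highest means of Id1, Id2, Id3, Id4 and Atoh8.

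Smad6 and Atoh8, a pair of BMP targets outside the ID family, fell with the ID genes. Smad6 (chromosome 9, 63953076 to 64022059) encodes an inhibitory SMAD that binds BMP type I receptors and keeps SMAD1 from acting, in a feedback loop. It was at 43.0, 54.5 and 59.5 CPM in control and 23.1, 22.8 and 14.7 CPM with TGFβ. It was at 39.5, 47.2 and 48.3 CPM on NAM and 19.0, 19.6 and 23.3 CPM on TGFβ+NAM, and at 52.7, 64.2 and 63.8 CPM on SAM and 23.4, 29.2 and 30.7 CPM on TGFβ+SAM. Within each background the treated and untreated libraries did not overlap. The log2 change was -1.35 ± 0.17, -1.13 ± 0.17 and -1.11 ± 0.16 on control medium, NAM and SAM (edgeR adjusted p 4e-08, 1.34e-06 and 6.16e-07).

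Atoh8 (chromosome 6, 72206177 to 72235577) encodes a basic helix-loop-helix factor known as a target of BMP signalling in liver and endothelial cells. It was at 16.5, 19.3 and 29.6 CPM in control and 3.03, 1.57 and 2.70 CPM with TGFβ, from 18, 10 and 11 reads. On NAM it was at 20.5, 21.5 and 19.0 CPM without and 4.26, 1.60 and 5.56 CPM with TGFβ. On SAM it was at 45.4, 45.0 and 42.2 CPM without and 5.85, 7.01 and 5.90 CPM with TGFβ. The control libraries were more spread than the SAM libraries, and no treated library reached an untreated one. Its change was -3.17 ± 0.31 (log2) on control medium, -2.43 ± 0.28 on NAM and -2.82 ± 0.26 on SAM (edgeR adjusted p 8.73e-11, 7.04e-09 and 1.38e-11).

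The ligand fell as well. Bmp4 (chromosome 14, 46383520 to 46390669) encodes a secreted BMP that acts on the cells that make it and on their neighbours, with a role in the development of the ureter and kidney. It was at 450.3, 411 and 373 CPM in control and 179.6, 141 and 163 CPM with TGFβ. It was at 353, 413 and 341 CPM on NAM and 127, 106 and 107 CPM on TGFβ+NAM. It was at 342, 353 and 320.3 CPM on SAM and 158, 126 and 208 CPM on TGFβ+SAM. All treated libraries were below all untreated ones, and among the treated groups the TGFβ+NAM libraries were lowest, save that TGFβ+SAM replicate 2 lies just below TGFβ+NAM replicate 1. TGFβ changed Bmp4 by -1.35 ± 0.12 on the log2 scale on control medium, -1.71 ± 0.12 on NAM and -1.04 ± 0.12 on SAM (edgeR adjusted p 5.35e-12, 9.51e-15 and 2.15e-09).

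The receptors and the transducer did not follow the targets. Bmpr2 (chromosome 1, 59763400 to 59879014), the type II receptor for BMP ligands, was at 99.2, 95.7 and 102 CPM in control and 125, 117 and 144 CPM with TGFβ. It was at 86.5, 93.9 and 77.7 CPM on NAM and 119, 138 and 141 CPM on TGFβ+NAM, and at 91.6, 69.6 and 83.3 CPM on SAM and 134, 132 and 115 CPM on TGFβ+SAM. Treated libraries were above untreated ones on each background. The log2 change was 0.37 ± 0.11 on control medium (edgeR adjusted p 0.0116), 0.63 ± 0.11 on NAM (2.42e-05) and 0.64 ± 0.11 on SAM (1.36e-05). The call on control medium rests on single libraries: without control replicate 2 the log2 change was 0.35 with an adjusted p of 0.0561, and without TGFβ replicate 3 it was 0.29 with an adjusted p of 0.101.

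Bmpr1a (chromosome 14, 34410734 to 34503341), the type I receptor that passes the BMP signal to SMAD1, had group means between 61.7 and 76.3 CPM, and every group overlapped its neighbour in the order of means. Its log2 change with TGFβ was -0.10 (95% interval -0.34 to 0.13) on control medium, 0.02 (-0.22 to 0.26) on NAM and 0.08 (-0.15 to 0.31) on SAM, with edgeR adjusted p of 0.625, 0.93 and 0.663. Smad1 (chromosome 8, 79338395 to 79399518), the transducer that BMP receptors phosphorylate, had group means between 27.9 and 34.7 CPM. Its log2 change was -0.27 (-0.58 to 0.04), 0.09 (-0.22 to 0.39) and 0.22 (-0.09 to 0.53) on control medium, NAM and SAM, with edgeR adjusted p of 0.251, 0.75 and 0.318. On SAM the treated Smad1 libraries (36.7, 33.3 and 31.2 CPM) lie above the untreated ones (26.7, 29.5 and 30.7 CPM), yet the difference did not pass. RNA levels do not report phosphorylation of the SMAD proteins, which is the step that carries the signal.

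Counted over the 10 members, 1 was higher and 7 were lower with TGFβ on control medium, where 9.70% of all genes tested were higher and 9.74% lower. On NAM it was again 1 and 7, beside 10.9% and 11.0% of all genes. On SAM it was 1 and 7, beside 14.2% and 14.2% of all genes. In each comparison the 7 were Id1, Id2, Id3, Id4, Bmp4, Smad6 and Atoh8 and the 1 was Bmpr2, and the 3 comparisons share no library. The counts were 1 and 7 also on NAM without the NAM and TGFβ+NAM libraries that stood apart, and on SAM without the SAM libraries whose tags conflict. The median log2 change of the 10 members was -1.26, -1.14 and -1.08, whereas that of all genes was 0.01, 0.00 and 0.00. The members were chosen with earlier results of these data known, so these counts and medians describe the set and test nothing. Some members overlap other annotated genes: opposite to Bmp4 lies Gm15222, with 310 reads against 30347 for Bmp4 over all libraries, and on the strand of Bmpr2 lies Gm38125, with 374 reads against 12087. No source used here states the strand setting of the counting, so such reads cannot be told apart, and the genes opposite to Id4 held 3 reads or fewer in all.

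**Figure D2:**
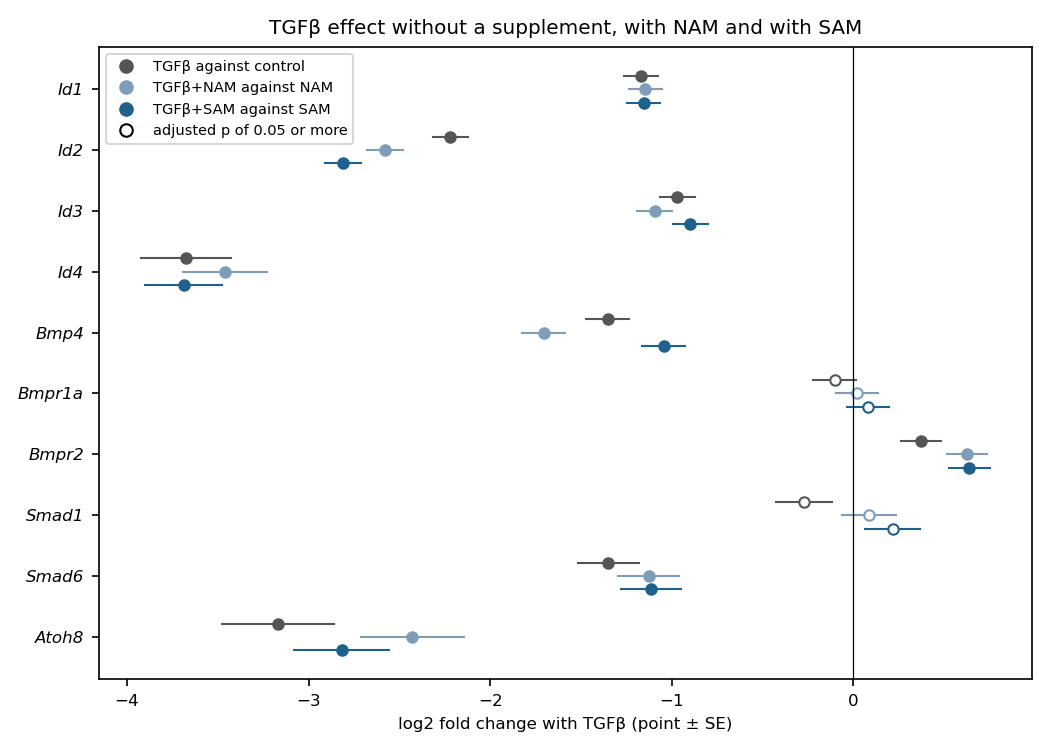
Fitted log2 change with TGFβ (points, filled where the adjusted p was under 0.05) and its standard error (bars) for each member on control medium, NAM and SAM. Id4, Atoh8 and Id2 lie furthest below 0, Bmpr2 lies above 0, and Bmpr1a and Smad1 lie near 0 on the 3 backgrounds.

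Whether NAM or SAM altered the TGFβ effect was asked with an interaction, the TGFβ effect with the supplement minus the effect without it. For SAM, Id2 was the only member that passed, with -0.59 ± 0.13 on the log2 scale (95% interval -0.86 to -0.32, edgeR adjusted p 0.0108), beside 0.802% of all genes with a positive and 0.631% with a negative call. Id2 rose to a mean of 776 ± 68.0 CPM (SD, n = 3) on SAM and was at 111 ± 12.6 CPM on TGFβ+SAM, close to its 100.3 ± 6.92 CPM on TGFβ alone. The call was lost without both SAM libraries whose tags conflict (-0.53, adjusted p 0.181), without TGFβ replicate 1 (-0.54, 0.0558) and without SAM replicate 3 (-0.52, 0.0562). For Id1 the interaction with SAM was 0.01 with a 95% interval of -0.24 to 0.27, and for Id3 0.07 with -0.20 to 0.34, and the data allow a difference of either sign up to these bounds. Smad1 was at 0.49 ± 0.22 (adjusted p 0.403) and Bmp4 at 0.31 ± 0.17 (0.529).

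For NAM, edgeR called 0 of 10 members for the interaction, 2 had an unadjusted p under 0.05 and DESeq2 called 0. Of all genes, 0 were called positive and 0 negative by edgeR, 462 had an unadjusted p under 0.05, and DESeq2 called 0. Id2 was at -0.36 ± 0.14 and Bmp4 at -0.35 ± 0.17 on the log2 scale, each with an adjusted p of 1.

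SAM on its own went with higher ID gene levels. Against control, 4 members were higher and 0 lower, where 5.02% of all genes were higher and 6.79% lower. The 4 were Id1, Id2, Id4 and Atoh8. Their SAM libraries all lie above their control libraries, and their means were 129%, 166%, 214% and 203% of control. The log2 change was 0.37 ± 0.09 for Id1, 0.73 ± 0.09 for Id2, 1.10 ± 0.18 for Id4 and 1.03 ± 0.23 for Atoh8, with edgeR adjusted p of 0.00396, 1.33e-07, 1.91e-05 and 0.00194. Without SAM replicates 2 and 3, Id2 and Id4 were still called, whereas Id1 was at 0.33 (adjusted p 0.179) and Atoh8 at 1.06 (0.0695).

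Id3 did not pass with SAM (0.26 ± 0.09, adjusted p 0.061), although its SAM libraries lie above its control libraries, and it did pass when the fit held only the 6 libraries compared (adjusted p 0.000193). Smad6 was at 0.21 ± 0.16 with overlapping libraries (0.457). Bmp4 at -0.28 ± 0.11 (0.108), Bmpr2 at -0.28 ± 0.11 (0.0994) and Smad1 at -0.21 ± 0.15 (0.438) did not pass, with SAM libraries that were all below control libraries. Bmpr1a was at -0.01 (0.986). Thus in the main fit the ligand, the receptors and the transducer gave no call in the comparison in which 3 ID genes rose. In the fit of only the 6 libraries compared, however, Bmp4 (adjusted p 0.000366) and Bmpr2 (0.0406) were called lower. Bmp4 was also called lower with no filter (0.0305) and without the NAM and TGFβ+NAM libraries that stood apart (0.0427). Beside this, the summed level of the 6 immune markers was 20.6 to 34.1 CPM with SAM and 11.9 to 15.4 CPM in control, nearly all from Cd68, with Adgre1, Cd3e and Cd79a at 0 reads, and its part in the result was not tested.

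With TGFβ present, SAM again went with 4 members higher and 0 lower, beside 3.07% and 4.25% of all genes. Here the 4 were Id1, Id3, Id4 and Atoh8, at 0.38 ± 0.09, 0.33 ± 0.10, 1.08 ± 0.29 and 1.38 ± 0.34 on the log2 scale against TGFβ alone (edgeR adjusted p 0.00659, 0.0249, 0.0162 and 0.00724). Their TGFβ+SAM libraries all lie above their TGFβ libraries. Even so, Id1 stayed at 57.9%, Id3 at 64.4%, Id4 at 16.7% and Atoh8 at 28.7% of the control mean, and no TGFβ+SAM library of these genes reached a control library. These calls rest on single libraries: without TGFβ replicate 3, Id1 had an adjusted p of 0.0523, Id3 0.149 and Id4 0.0978, and without TGFβ replicate 2, Id3 had 0.0726, Id4 0.0708 and Atoh8 0.0772. Id3 was also lost without TGFβ+SAM replicate 2 (0.0734) or 3 (0.16), Id4 without TGFβ+SAM replicate 1 (0.149), and Id4 (0.155) and Atoh8 (0.0773) in a fit of only the groups compared.

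Id2, which had risen with SAM alone, was at 0.14 ± 0.10 with TGFβ present (95% interval -0.06 to 0.34, adjusted p 0.466), and the libraries of both groups overlapped. Smad6 was at 0.44 ± 0.17 (0.126) with libraries that did not overlap, Bmp4 at 0.03 (0.934) and Bmpr1a at 0.18 (0.427). The comparison of TGFβ+SAM with TGFβ shares its libraries with the TGFβ comparisons above, so the values stand side by side and are not independent.

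NAM left no call among the members. Against control edgeR called 0 of 10, none had an unadjusted p under 0.05 and DESeq2 called 0, beside 0% of all genes called higher and 0.00742% lower. Of all genes 722 had an unadjusted p under 0.05, and DESeq2 called 10 higher and 5 lower. The log2 change was 0.05 (95% interval -0.13 to 0.23) for Id1, 0.16 (-0.03 to 0.34) for Id2, 0.05 (-0.14 to 0.24) for Id3, 0.20 (-0.16 to 0.56) for Id4 and -0.10 (-0.57 to 0.38) for Atoh8. For Id2 the NAM libraries lie above the control libraries, and for Bmpr1a and Bmpr2 below them, all short of a call.

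With TGFβ present, NAM against TGFβ alone also gave 0 of 10 calls by edgeR, with 3 members at an unadjusted p under 0.05 and 1, Bmp4, called lower by DESeq2. Of all genes, edgeR called 0.0297% higher and 0.0520% lower, and 932 had an unadjusted p under 0.05. Of the same 13469 genes DESeq2 called 13 higher and 27 lower. Bmp4 was at 127, 106 and 107 CPM in TGFβ+NAM and 179.6, 141 and 163 CPM in TGFβ, without overlap, for a log2 change of -0.51 ± 0.12 (adjusted p 0.0928). Smad1 was at 0.32 ± 0.16 (0.704), also without overlap. Id2 was at -0.20 (0.718), Id4 at 0.41 (0.839) and Atoh8 at 0.64 (0.767). Bmp4 was called lower by edgeR without TGFβ+NAM replicate 1 (adjusted p 0.0254) and with no filter (0.000518). It was also called without the NAM and TGFβ+NAM libraries that stood apart (0.0111).

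**Figure D3:**
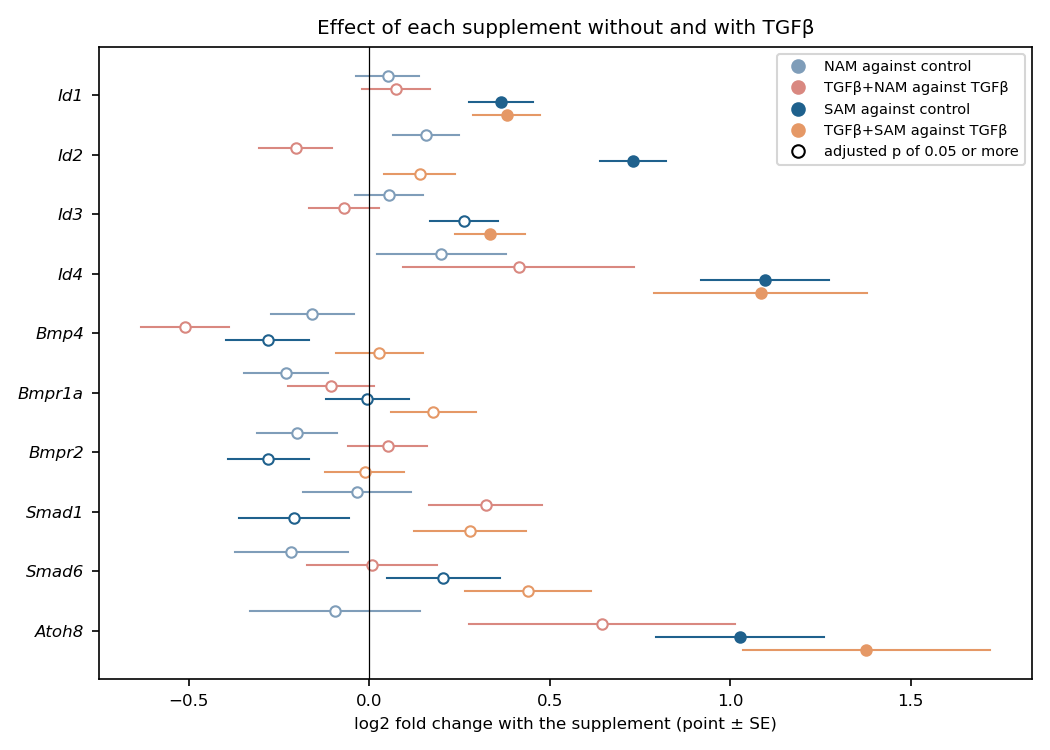
Fitted log2 change (points, filled where the adjusted p was under 0.05) and standard error (bars) of each member with NAM or SAM, without and with TGFβ. For Id1, Id4 and Atoh8 the SAM values lie above 0 both without and with TGFβ, Id2 is at 0.73 without and 0.14 with TGFβ, and the NAM value furthest from 0 is that of Atoh8 with TGFβ, at 0.64 and short of a call.

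The order of the 6 groups was much the same for the ID genes. SAM was highest for Id1, Id2, Id3 and Id4, above NAM and control and without overlap with the next group. NAM and control overlapped for Id1, Id3 and Id4, and for Id2 NAM lies above control. For Id1 and Id3 TGFβ+SAM came next, above TGFβ+NAM and TGFβ, which overlapped, whereas for Id2 and Id4 neighbours among the 3 treated groups overlapped. Atoh8 had the order of Id1, save that control came before NAM, with overlap, whereas for Smad6 control overlapped both SAM and NAM, and all SAM libraries lie above all NAM libraries. Bmp4 differed in that neighbours among control, NAM and SAM overlapped and TGFβ+NAM had the lowest mean, without overlap with TGFβ.

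Over the 18 libraries Pearson's r of log2 CPM was 0.98 between Id1 and Id2, 0.97 between Id1 and Id3, 0.97 between Id1 and Id4, 0.96 between Id1 and Smad6, 0.96 between Id1 and Atoh8, 0.89 between Id1 and Bmp4 and -0.90 between Id1 and Bmpr2. These points share the 6 treatments, so the values mostly describe the group means given above. Within groups, over deviations from the group mean, r of member pairs ran from -0.57 between Id3 and Smad1 to 0.57 between Id2 and Id3. It was 0.50 between Id1 and Smad6, -0.07 between Id1 and Id2 and -0.51 between Id4 and Atoh8. Among 10523 genes of at least 5 CPM, the 5 most like Id1 over the 18 libraries were Veph1 (0.99), Ldhb (0.99), Gas1 (0.99), Vldlr (0.98) and Slc43a2 (0.98). Those most like Id2 were Atp1b1 (0.99), Tfcp2l1 (0.99), Fam3c (0.99), P3h2 (0.99) and Tspan5 (0.99), and those most like Id3 were Pfn2 (0.98), Tfcp2l1 (0.98), Ldhb (0.98), Tfap2a (0.97) and Ppargc1a (0.97). Tfcp2l1, a transcription factor known from the collecting duct, and Ldhb, a lactate dehydrogenase subunit, each appear for a pair of ID genes.

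The rest of the BMP pathway was read from 55 further genes, of which 32 were tested. With TGFβ on control medium 6 of the 32 were higher and 5 lower, beside 9.70% and 9.74% of all genes. On NAM 7 were higher and 4 lower, beside 10.9% and 11.0% of all genes. On SAM 9 were higher and 6 lower, beside 14.2% and 14.2% of all genes, so calls went in both directions. Their median log2 change was 0.23, 0.10 and 0.20 on control medium, NAM and SAM, beside 0.01, 0.00 and 0.00 for all genes.

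Among 12 further ligands, 3 were tested and 6 had no read in any library. Bmp6, a BMP known from the control of iron through the liver, was at 117, 112 and 106 CPM in control and 52.4, 53.4 and 48.9 CPM with TGFβ, and fell by 1.11 on the log2 scale there, by 1.17 on NAM and by 1.36 on SAM (edgeR adjusted p 9.24e-10, 2.43e-10 and 5.42e-12). Its libraries did not overlap on any background. Bmp7, a kidney BMP known for protecting tubules, was at 8.46, 12.6 and 8.95 CPM in control and 16.3, 16.8 and 18.2 CPM with TGFβ, and its log2 change was 0.77 (adjusted p 0.0402), 1.03 on NAM (0.0048) and 0.09 on SAM (0.855). The Bmp7 call on control medium was lost on leaving out control replicate 1 (adjusted p 0.159) or 3 (0.141) or TGFβ replicate 1 (0.072), 2 (0.082) or 3 (0.107).

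Of 9 further receptors and co-receptors 6 were tested. With TGFβ on control medium 1 was higher and 2 lower, beside 9.70% and 9.74% of all genes. Acvr1, a type I receptor for BMP ligands, was at 25.7, 15.2 and 16.9 CPM in control and 44.1, 34.4 and 41.5 CPM with TGFβ, and its log2 change was 1.05, 1.14 and 1.96 on control medium, NAM and SAM (edgeR adjusted p 3.31e-05, 3.99e-06 and 8.79e-11). With SAM alone Acvr1 was at -0.67 (0.0236), a call lost without control replicate 1 (0.296), SAM replicate 2 (0.105) or SAM replicate 3 (0.0577). Acvr2a, a type II receptor for activins and BMPs, was at -0.78 (0.0456) with TGFβ on control medium. Rgma, a BMP co-receptor, was at -0.78 (0.048) there, with overlapping libraries, and at -0.92 (0.00728) on SAM. The calls of Acvr2a and Rgma on control medium were lost on leaving out any 1 of several libraries, with adjusted p up to 0.291 and 0.525, and that of Rgma on SAM without SAM replicate 2 (0.051).

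All 3 other SMAD transducers were tested. Smad9, the rarer partner of Smad1 and itself a BMP target, was at 7.19, 8.72 and 9.46 CPM in control and 1.85, 1.10 and 1.47 CPM with TGFβ, from 11, 7 and 6 reads, for a log2 change of -2.51 ± 0.51. On NAM its change was -3.99 ± 0.60, with 8 reads in all in the treated group, and on SAM -2.69 ± 0.51 (edgeR adjusted p 0.000219, 1.35e-06 and 5.26e-05). Smad5, another partner, was at 0.44 ± 0.10 with TGFβ on SAM (0.00115), 0.23 on control medium (0.136) and 0.03 on NAM (0.903). Smad4, which both branches share, had no call in these comparisons.

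Of 14 secreted antagonists and modulators 9 were tested, and Fstl1 and Chrdl1 moved in opposite directions. Fstl1, a follistatin-like glycoprotein that can bind BMP4, was at 506, 498 and 488 CPM in control and 1284, 1385 and 1272 CPM with TGFβ, and at 245, 251 and 246 CPM with SAM and 1367, 1461 and 1241 CPM with TGFβ+SAM. Its TGFβ change was 1.40 ± 0.08 on control medium, 1.51 ± 0.08 on NAM and 2.46 ± 0.08 on SAM, and its interaction with SAM was 1.05 ± 0.11 (edgeR adjusted p 5.66e-09). SAM alone lowered it by 1.01 on the log2 scale (6.65e-13). Chrdl1, a chordin-like BMP antagonist, was at 18.2, 21.3 and 25.0 CPM in control and 8.93, 9.27 and 4.91 CPM with TGFβ, and fell by 1.45, 2.77 and 1.23 on the log2 scale on the 3 backgrounds (6.65e-05, 5.93e-10 and 0.000397). Fst, the follistatin gene, had no call with TGFβ and fell by 0.41 with SAM (0.000449), from 2005, 2128 and 2168 CPM to 1593, 1609 and 1554 CPM. Crim1, a membrane protein that tethers BMPs, was at 0.33 on SAM (0.0104) with overlapping libraries, a call lost without TGFβ+SAM replicate 2 (0.14).

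Of 6 inhibitors inside the cell or in its membrane 5 were tested, and Bambi had no read. Skil, a repressor of SMAD transcription, rose by 0.97 ± 0.11, 1.03 ± 0.11 and 1.42 ± 0.12 on the log2 scale with TGFβ on control medium, NAM and SAM (edgeR adjusted p 8.47e-09, 1.18e-09 and 5.44e-13), from 55.1, 48.9 and 57.6 CPM in control to 101, 109.8 and 106 CPM with TGFβ. Smad7, the inhibitory SMAD that TGFβ is known to induce, passed in TGFβ+NAM against NAM, at 0.50 (0.0362), a call lost without TGFβ+NAM replicate 2 (0.252). It was at 0.37 on control medium (0.154) and 0.35 on SAM (0.143), so no difference between backgrounds is shown. The ubiquitin ligase genes Smurf1 and Smurf2 were at 0.55 and 0.51 on SAM (0.00119 and 0.018), and Ski, a relative of Skil, at -0.26 (0.0325). Each of these last 3 calls was lost without at least 1 single library, such as TGFβ+SAM replicate 1 for Smurf1 (0.0514), SAM replicate 3 for Smurf2 (0.105) and SAM replicate 1 for Ski (0.198).

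Of 8 other BMP targets, Hes1, Msx1 and Hey1 were tested, while Hey2, Msx2, Dlx5 and Hamp had no read. Hes1, a repressor better known as a Notch target, moved in the other direction from the ID genes. It was at 117, 118 and 110.5 CPM in control and 201, 173 and 196 CPM with TGFβ, and its log2 change was 0.72 ± 0.11, 0.49 ± 0.11 and 0.96 ± 0.11 on control medium, NAM and SAM (edgeR adjusted p 2.15e-06, 0.000617 and 1.93e-09). With SAM alone it was at 0.38 (0.0161), a call lost without SAM replicate 2 (0.0718) among others. Msx1, a homeobox BMP target, was at -0.47 on control medium (0.149), -0.79 on NAM (0.0074) and -0.93 on SAM (0.00181). Of the 3 E proteins, the partners that ID proteins hold back, Tcf4 was higher with TGFβ on each background, at 0.33, 0.39 and 0.39 (0.011, 0.0018 and 0.00132), with the first lost without control replicate 3 (0.128). Tcf3 and Tcf12 had no call with TGFβ.

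The TGFβ branch stood beside this as a check on the treatment, and 10 of 13 listed genes were tested. On control medium 4 were higher and 1 lower, beside 9.70% and 9.74% of all genes. Ccn2 and Pmepa1, both textbook SMAD3 targets, were higher by 2.52 and 2.31 on the log2 scale on control medium (edgeR adjusted p 8.67e-25 and 1.05e-22), by 2.78 and 2.41 on NAM and by 3.69 and 3.73 on SAM. With SAM alone Ccn2 and Pmepa1 fell by 1.16 and 0.99, where Id1, Id2 and Id4 rose. Tgfbr3, a co-receptor that also binds BMPs, fell by 1.25 (8.27e-07), and Tgfb2 was at 0.25 (0.0398), a call lost without any of the 3 control libraries, at an adjusted p of at most 0.115 in those fits. Smad3 passed in TGFβ+NAM against NAM, at -0.39 (0.00479), a call lost without TGFβ+NAM replicate 2 (0.0617), and Tgfbr2 was at -0.35 with SAM (0.0168), a call lost without control replicate 2 (0.0557) among others.

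**Figure D4:**
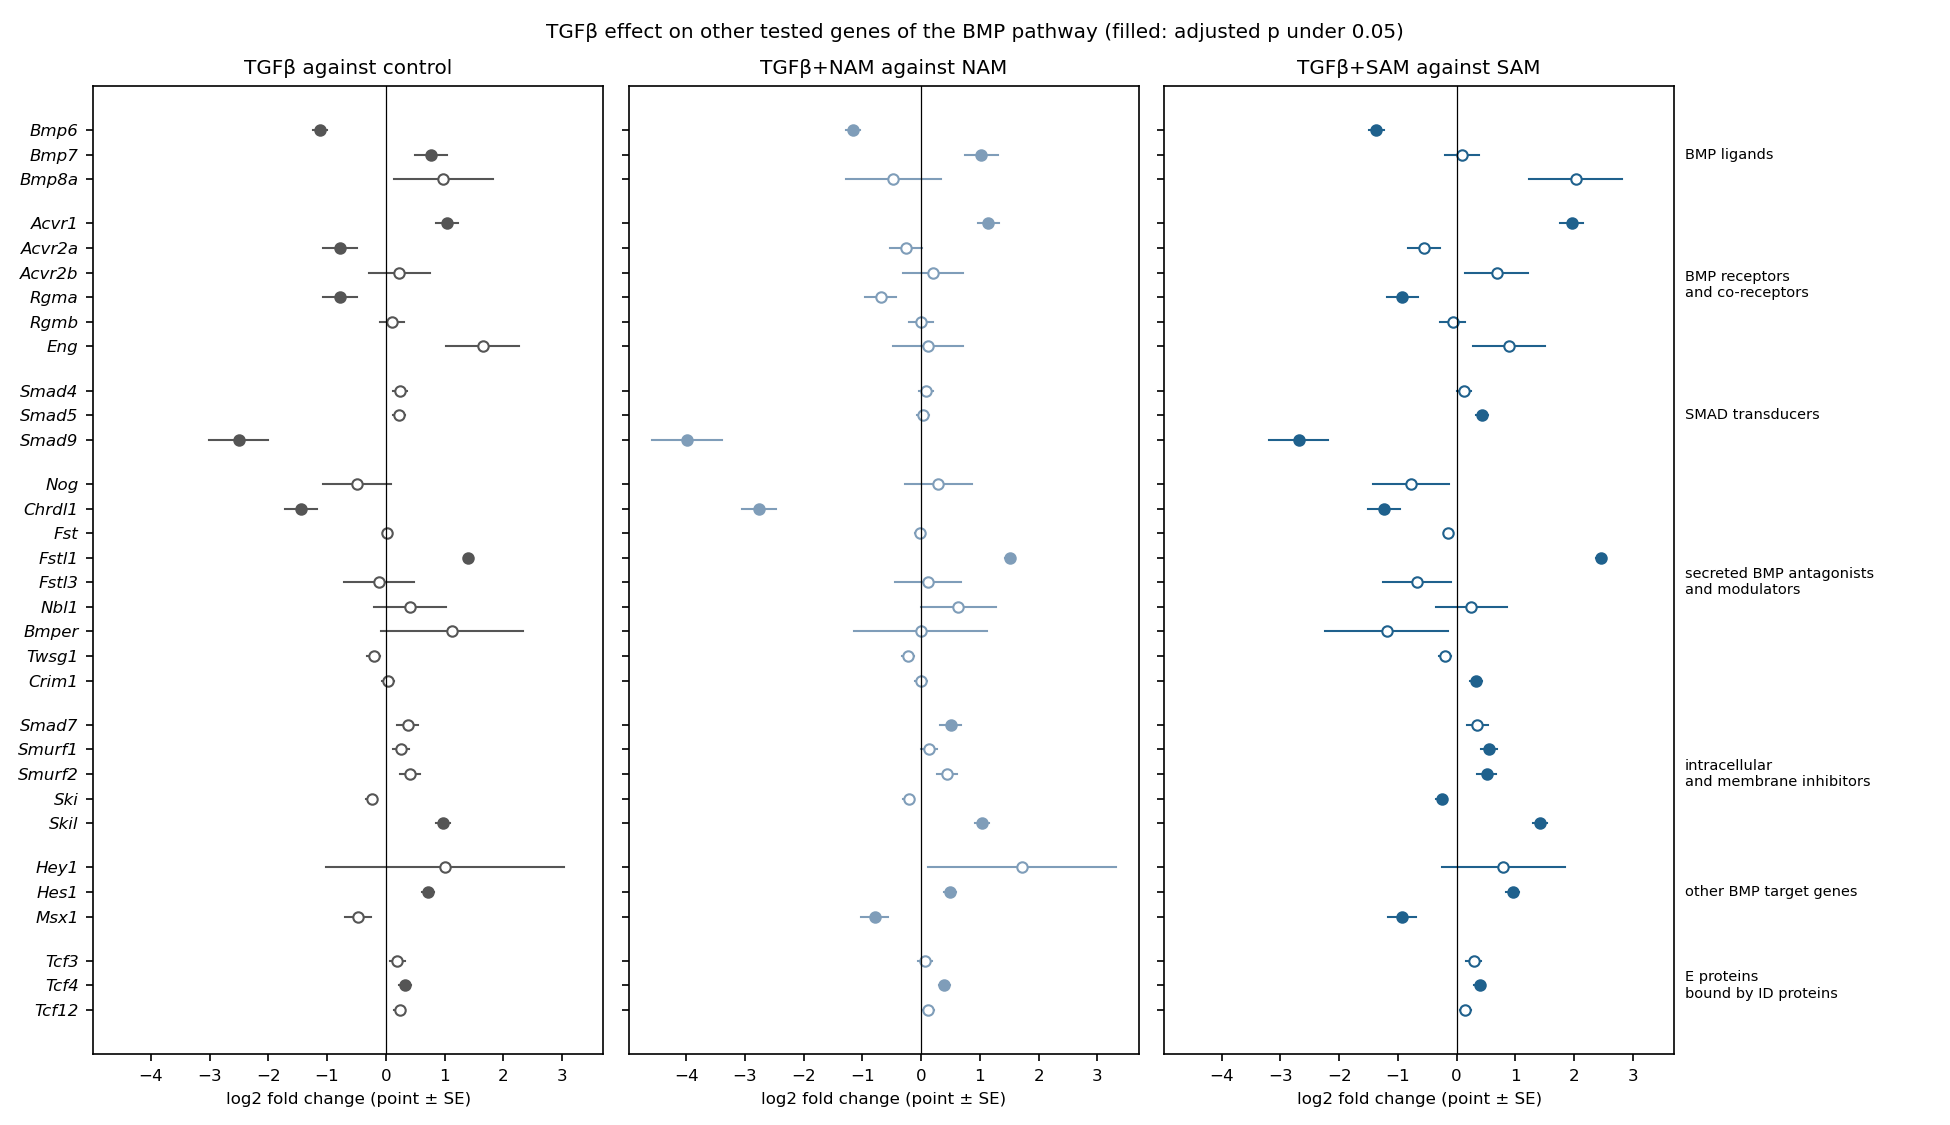
Fitted log2 change with TGFβ of the 32 other tested BMP pathway genes, by role, with a panel for control medium, NAM and SAM, bars for the standard error, with filled points for genes that passed and open points for those that did not. Fstl1, Skil, Acvr1 and Hes1 lie above 0 and Bmp6, Chrdl1 and Smad9 below it on each background, so the lists hold calls in both directions.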

How the data were processed

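The 18 libraries were QuantSeq 3′ libraries of polyadenylated RNA. The deposited table holds raw counts of reads per gene and library. The tools STAR and HTSeq are named, without versions, per the submitters' processing notes; strand setting and annotation release are not given in the sources used here. The notes name the build GRCh38, whereas the 55487 gene rows carry mouse identifiers. Of these, 55141 matched a symbol of a mouse annotation (GENCODE M21, GRCm38), from which coordinates come and which need not be that of the authors. Reads outside genes made up 22.8% to 28.2% of a library and ambiguous reads 0.607% to 0.779%, and neither was used.

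Groups were taken from the sample titles. Counts were tested with edgeR 4.0.16 in R 4.3.3, with TMM scaling (factors 0.960 to 1.04) and the filterByExpr filter (minimum count 10), which passed 13469 genes. All 18 libraries entered 1 quasi-likelihood fit (common coefficient of variation 0.139), tested on simulated counts. Contrasts had two-sided F tests with Benjamini-Hochberg adjustment over all genes and a threshold of 0.05. The SE is the log2 change divided by the root of F. An exact permutation of 3 against 3 libraries cannot go below 0.1, and apart from the alternatives no gene was tested outside this fit. Alternatives were DESeq2 1.42.0, other scalings, no filter, a replicate block, the compared groups alone and libraries left out. Reads carry no molecular identifiers and so are not independent molecules.

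The members, the pathway lists (ligands, receptors and co-receptors, transducers, secreted antagonists, inhibitors, other targets, E proteins and the TGFβ branch) and the marker lists were chosen with earlier results of these data known. All members are named, and from a list each gene with an adjusted p under 0.05 in a TGFβ comparison or in SAM against control; some genes of the lists are not reported here. The genes most like Id1, Id2 and Id3 are the 5 non-members with the highest Pearson r of log2 CPM (prior count 2).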

Additional observations from a re-analysis of the deposited data

Results flagged for a closer look

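Id2 is the member whose TGFβ effect differed between media by a test of the difference itself. The interaction of SAM with TGFβ was -0.59 on the log2 scale (95% interval -0.86 to -0.32, edgeR adjusted p 0.0108), from a TGFβ effect of -2.22 ± 0.10 on control medium and -2.81 ± 0.10 on SAM. The mean of Id2 was 468 ± 15.7 CPM (SD, n = 3) in control and 776 ± 68.0 CPM with SAM, and 100.3 ± 6.92 CPM with TGFβ and 111 ± 12.6 CPM with TGFβ+SAM. Over 20 alternatives the log2 value lay between -0.69 and -0.52 and the adjusted p between 0.00108 and 0.181, and 3 of the 20 ended the call.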

How the results depend on the processing

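The 10 members gave 1315 log2 changes under the alternatives, of which 1287 kept their direction and side of the threshold, 18 lost the call, 10 gained one and 0 reversed. The 7 falls with TGFβ held their call on each of the 3 backgrounds under every alternative run. Leaving out single libraries, the number of members called higher with TGFβ against control was 0 to 1 (Bmpr2), that of members lower in TGFβ+NAM against TGFβ 0 to 1 (Bmp4), that of members higher in TGFβ+SAM against TGFβ 1 to 4, and that of negative interactions with SAM 0 to 1 (Id2). Without both SAM libraries whose tags conflict, 2 members in place of 4 were higher with SAM and 0 in place of 1 had an interaction with SAM. In SAM against control 1 member (Bmp4) in place of 0 was called lower with no filter and with both NAM libraries that stood apart left out. In a fit of only the groups compared 2 were called lower (Bmp4 and Bmpr2). In TGFβ+NAM against TGFβ 1 in place of 0 was lower with no filter, with those NAM libraries left out and by DESeq2. In TGFβ+SAM against TGFβ 2 in place of 4 were higher in a fit of only the groups compared. The cause of these shifts was not tested, beyond the smaller number of libraries in some fits.

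Over all genes, counts moved by over 1.5 times in some fits. Without the conflicting SAM libraries, calls in TGFβ+SAM against SAM were 1094 higher and 1164 lower (1910 and 1914 with all libraries), in SAM against control 148 and 318 (676 and 915), and for the interaction with SAM 41 and 22 (108 and 85). SAM against control gave 1144 higher with only the groups compared. The interaction with SAM gave 166 positive with the NAM libraries left out. NAM against control gave 8 higher and 7 lower with no filter and 10 and 5 by DESeq2 (0 and 1), and TGFβ+NAM against TGFβ 9 and 23 with no filter, 0 and 0 with only the groups compared, 14 lower with the NAM libraries left out, and 13 and 27 by DESeq2 (4 and 7).

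The replicate block changed no member's call, and of the other genes named it ended those of Acvr2a (adjusted p 0.0559) and Rgma (0.0578) with TGFβ against control. Replicate numbers showed no clear pairing: over 45 pairs of libraries with the same number the correlation of deviations was -0.10 to 0.07. Over 90 pairs with different numbers it was -0.13 to 0.17. Of the 18 libraries 9 correlated best with their own number, so whether samples were paired is not settled. Under the block, members called higher and lower with TGFβ against control were 1 and 7. Calls at the lowest levels, as for Id4 and Atoh8 with TGFβ, rest on 8 to 49 reads a library.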
